A study of Rattus rattus with 8 samples.

Results

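The genes described here encode proteins of the dermal matrix and of the fibroblasts that make it. They were given as a list of 10 RefSeq accessions, and a probe was a member when it carried a listed accession. All 10 genes had a probe, with 14 probes among the 30367 non-control probes of the array.

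Whisker follicles came from male adult Sprague-Dawley rats, and each array held RNA pooled from several follicles of 1 rat. The 3 sham control rats (C1, C2 and C3, control replicates 1 to 3) had a shock wave pressure of 0 kPa. The 5 blast rats received a single head-only shock wave under isoflurane, at 145 kPa in M2 and M3 (blast replicates 1 and 5), 175 kPa in H1 (replicate 2) and 200 kPa in XH1 and XH3 (replicates 3 and 4). The methods name a shorter and a longer observation period, and which rat had which was not given in the sources used here. The labels name the animals Rattus rattus, while the study describes its model as Rattus norvegicus.

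The dermal papilla and the connective tissue sheath of a hair follicle are built by fibroblasts, while most of the follicle is epithelium. Fibroblasts secrete fibrillar collagens, which form the fibres of the dermis, together with glycoproteins that join cells to the fibres and small proteoglycans that bind collagen and influence fibre assembly. Proteases cut the matrix during growth and repair.

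The median signal of a spot ranged from 90.9 in C2 to 280.5 in C1, and between 65.9% (M3) and 73% (C1) of spots were well above background. Levels are given as log2 of the quantile-normalized intensity, and the level of a probe was set against that of another only to choose the brightest probe of a gene. A probe counted as well above background on an array when a share of its spots over 0.5 was. By that measure 6 of the 10 genes (Col1a1, Col1a2, Sparc, Vim, Bgn and Mmp2) were well above background on all 8 arrays. Fn1 was so on 7 arrays, Col3a1 and Dcn on 3 each, and Lum on 0. Each gene is described by its brightest probe, and other probes are named as such.

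Blast was compared with control to ask whether these genes differed after exposure. At an adjusted p under 0.05, limma called 0 of the 10 genes, as it called 0 of 30366 probes (0%). At an unadjusted p under 0.05, 1 gene (Col3a1) was higher in blast, where 1.18% of all probes were, and 0 genes were lower, where 1.62% of all probes were. Among the 6 genes well above background on all arrays, the log2 fold change was positive for 3 and negative for 3, with a median of 0.02. Among the 16873 probes well above background on all arrays it was positive for 48.4%, with a median of -0.01. As each sample is a whole follicle pool, fewer fibroblasts and less RNA per fibroblast cannot be told apart.

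**Figure D1:**
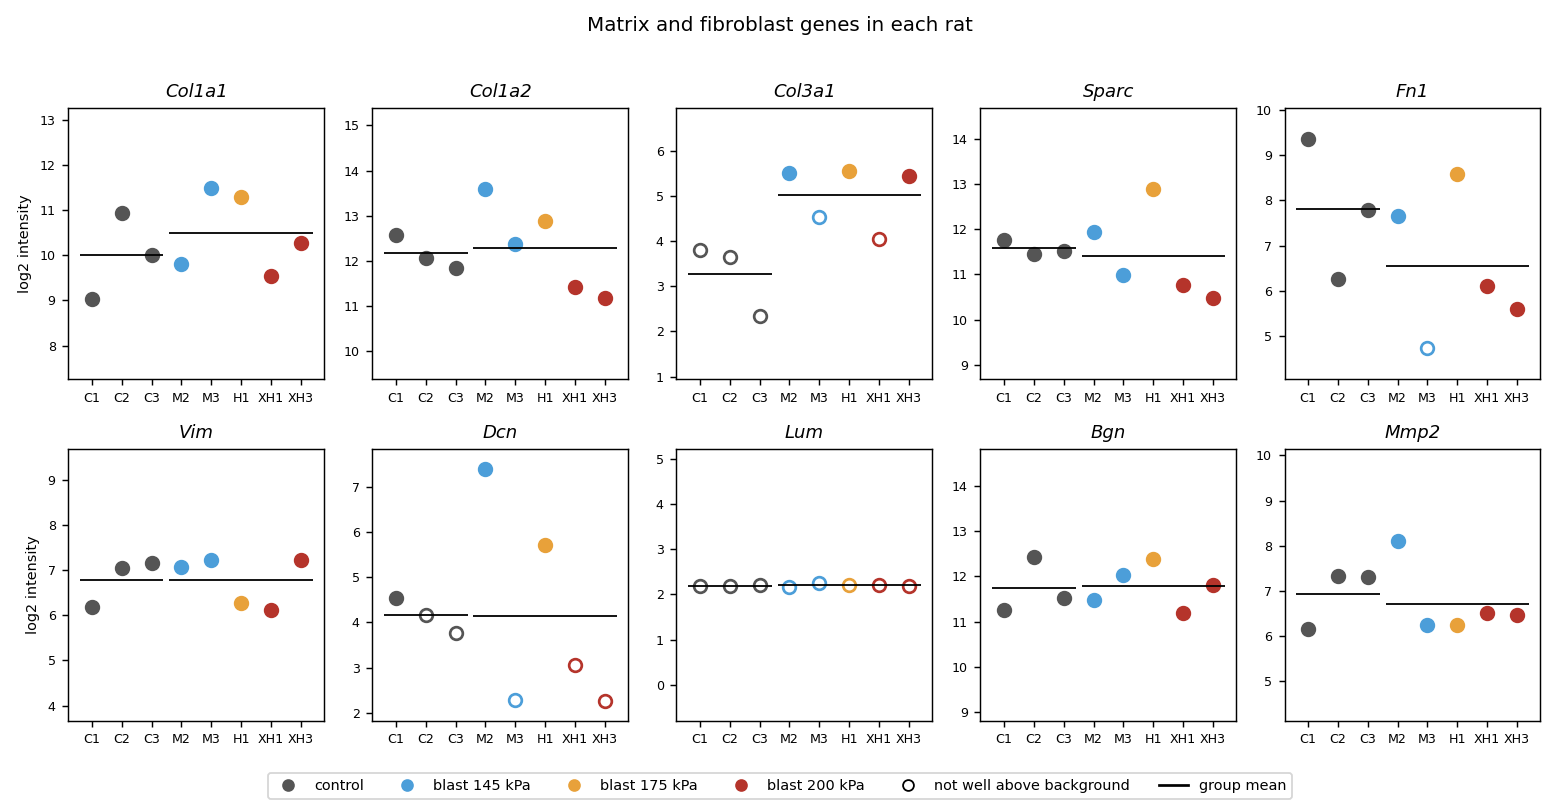
Level of each gene in each rat, as log2 intensity of its brightest probe (vertical axis, spanning 6 log2 units in each panel), with rats on the horizontal axis and lines at the group means. Open points were not well above background, as in all 3 controls for Col3a1 and on all 8 arrays for Lum.

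Among the fibrillar collagens, Col3a1 (NM_032085), the chain of type III collagen that is abundant in young and healing dermis, was the gene with an unadjusted p under 0.05. Its measured levels were 3.79 in C1, 3.64 in C2 and 2.34 in C3, against 5.51 in M2, 4.52 in M3, 5.55 in H1, 4.05 in XH1 and 5.44 in XH3. M2, H1 and XH3 were high, and well above background, while M3, XH1 and the 3 controls were not well above background. The measured values of all 5 blast rats were above those of all 3 controls, but the order of M3, XH1 and the controls is not known. Such a separation of measured values was found for 1 of the 10 genes and for 0.96% of 30217 probes with a value on every array, and the opposite one for 0 genes and 1.04% of probes. In C1, 1 of the 2 spots of the Col3a1 probe was well above background, a share of 0.5 that falls just short of the rule. The 2 spots in C2 had a log2 SD of 1.18. As the probe was by that rule well above background in 0 of 3 controls and in 3 of 5 blast rats, no fold is given. The adjusted p from limma was 1, and the two-sided exact permutation p was 0.0357, where the smallest p that 56 ways to part the rats allow is 0.0179, and both rest in part on these dim arrays. In row 1 of the slide, M2 and H1 were well above background and C1 and C2 were not. In row 2, XH3 was, and C3, M3 and XH1 were not. With normexp background correction 0 genes had an unadjusted p under 0.05, where 669 of all probes had one, against 850 in the main fit.

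Col1a2 (NM_053356) encodes the second chain of type I collagen, the main fibre of skin. It stood at 12.58 in C1, 12.07 in C2 and 11.85 in C3, and at 13.60 in M2, 12.38 in M3, 12.88 in H1, 11.42 in XH1 and 11.18 in XH3. The controls lay in the middle of the blast rats, with M2 and H1 above all controls and both 200 kPa rats below them. The mean was 12.17 ± 0.37 (SD, n = 3) in controls and 12.29 ± 1.01 (SD, n = 5) in blast. The log2 fold change was 0.12 with a 95% confidence interval from -1.20 to 1.44, and it was -0.20 without M2 and 0.44 with the slide row as a block.

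Col1a1 (NM_053304), the partner chain of type I collagen, had 2 probes. The brighter one read 9.03 in C1, 10.94 in C2 and 10.01 in C3, and 9.81 in M2, 11.49 in M3, 11.28 in H1, 9.54 in XH1 and 10.28 in XH3. M3 and H1 were above every control, and the groups overlapped. The other probe read 7.20, 7.99 and 6.26 in C1, C2 and C3, and 8.42 in M2, 6.37 in M3, 9.11 in H1, 6.84 in XH1 and 7.37 in XH3. The probes disagreed on M3, which was the highest rat by the first and the second lowest by the other, and their r over the 8 rats was 0.22 (exact permutation p = 0.597; Spearman rho 0.14, exact permutation p = 0.752). Their log2 fold changes were close, at 0.48 (95% interval from -0.91 to 1.88) and 0.47 (from -1.15 to 2.10). That of the brighter probe was 0.00 without C1 and 0.96 without C2, 0.12 with the slide side as a block and 0.13 with array quality weights.

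Sparc (NM_012656) encodes a collagen-binding glycoprotein of the matrix. Its levels were 11.76 in C1, 11.45 in C2 and 11.52 in C3, and 11.93 in M2, 10.98 in M3, 12.89 in H1, 10.76 in XH1 and 10.48 in XH3. The controls lay close together (11.58 ± 0.16, SD, n = 3) and the blast rats on both sides of them (11.41 ± 0.99, SD, n = 5), with 2 above and 3 below all controls. The log2 fold change was -0.17 (95% interval from -1.44 to 1.09), and it was 0.12 with the slide row as a block. Within row 1 of the slide (C1, C2, M2 and H1) the difference was 0.80. Within row 2 (C3, M3, XH1 and XH3), where C3 was the only control, it was -0.79.

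Fn1 (NM_019143), which encodes the cell-adhesive glycoprotein fibronectin, had the widest range among the genes with a level on at least 7 arrays. It read 9.37 in C1, 6.27 in C2 and 7.78 in C3, and 7.66 in M2, 8.59 in H1, 6.10 in XH1, 5.61 in XH3 and 4.73 in M3, the array on which it was not well above background. Among the 7 rats with a level, the highest, the control C1, was 13.6-fold above the lowest, XH3. The groups overlapped, with 3 blast rats below all controls and 0 above them. The log2 fold change was -1.27 with a 95% interval from -3.67 to 1.13. It was -0.49 without C1, -2.04 without C2 and -0.82 without M3. The 2 spots of the probe differed within the arrays of C2 (log2 SD 1.17) and XH1 (0.57), while on the other arrays that SD lay between 0.02 and 0.35. Within row 1 of the slide the difference was 0.30. Within row 2, which holds the dim array of M3 and has C3 as its only control, it was -2.30. A further Fn1 probe was well above background on 1 array, that of H1.

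Vim (NM_031140) encodes vimentin, the intermediate filament of fibroblasts and other mesenchymal cells. It had 10 spots, of which 9 or 10 entered on each array, with an SD within an array between 0.08 and 0.19. The levels were 6.19 in C1, 7.04 in C2 and 7.15 in C3, and 7.06 in M2, 7.22 in M3, 6.28 in H1, 6.12 in XH1 and 7.22 in XH3. C1, H1 and XH1 were low and the other 5 rats high, so that both groups held rats of each kind. The 3 low rats were those with the number 1 in their titles, which was noticed after the values were seen, and what the numbers mark was not given in the sources used here. The log2 fold change was -0.01 (95% interval from -0.85 to 0.83).

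Dcn (NM_024129) encodes decorin, a small leucine-rich proteoglycan on collagen fibres. Its measured values were 4.55 in C1, 4.16 in C2 and 3.76 in C3, and 7.39 in M2, 2.29 in M3, 5.72 in H1, 3.06 in XH1 and 2.27 in XH3. C1, M2 and H1 were the 3 rats well above background, and M2 was 7.17-fold above C1. The order of the other 5 rats is not known, beyond that they were dim. As 2 of the 3 controls and 3 of the 5 blast rats were dim, no difference of the group means is read.

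Lum (NM_031050), which encodes the related proteoglycan lumican, was not well above background on any array, and no fold is given. In the gene table of the assembly Rrattus_CSIRO_v1, 0 protein-coding genes are listed between Dcn and Lum.

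Bgn (NM_017087), encoding biglycan of the same family, was well above background on all arrays with both of its probes, and these ran in opposite directions. The brighter one read 11.26 in C1, 12.42 in C2 and 11.53 in C3, and 11.48 in M2, 12.04 in M3, 12.39 in H1, 11.20 in XH1 and 11.80 in XH3. The other read 12.20 in C1, 10.36 in C2 and 11.40 in C3, and 11.48 in M2, 10.01 in M3, 11.53 in H1, 11.84 in XH1 and 11.45 in XH3. C2 was the highest rat by the first probe and the second lowest by the other, while C1 was the second lowest by the first and the highest by the other. Their r over the 8 rats was -0.67 (exact permutation p = 0.0658; Spearman rho -0.67, exact permutation p = 0.0831). The log2 fold change was 0.04 (95% interval from -0.77 to 0.86) by the first probe and -0.06 (from -1.29 to 1.18) by the other, so the groups overlapped by either.

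Mmp2 (NM_031054) encodes a gelatinase that cuts denatured collagen and basement membrane. It stood at 6.16 in C1, 7.33 in C2 and 7.30 in C3, and at 8.11 in M2, 6.24 in M3, 6.24 in H1, 6.52 in XH1 and 6.47 in XH3. M2 was above all controls, and the other 4 blast rats lay close together within the range of the controls. The log2 fold change was -0.21 (95% interval from -1.38 to 0.96), and with a rat left out it lay between -0.59 (without C1) and -0.01 (without C2), with -0.56 without M2. Within rows 1 and 2 of the slide the difference was 0.43 and -0.89, the latter with C3 as the only control. A further probe was well above background on 1 array, again that of M2, and with the mean of both probes the log2 fold change was 0.31.

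**Figure D2:**
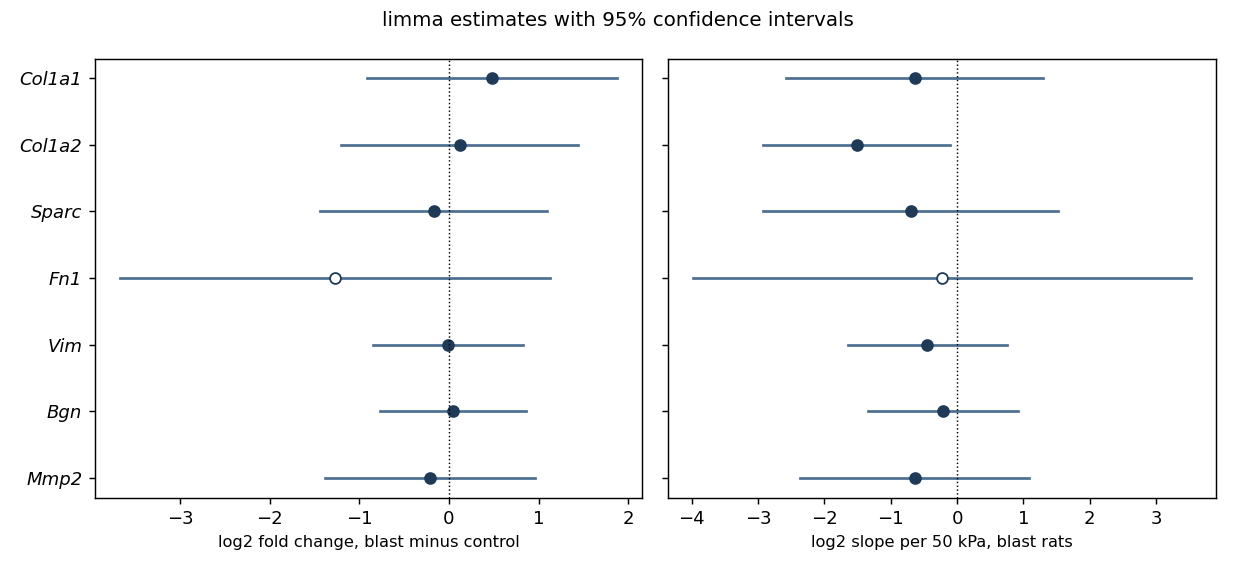
limma estimates (points) with 95% confidence intervals (lines) for the 7 genes well above background on at least 7 arrays, as log2 fold change of blast minus control (left) and log2 slope per 50 kPa among the 5 blast rats (right). The open points are those of Fn1, dim on 1 array. The interval of Col1a2 on the right does not hold 0, and its adjusted p was 1.

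The spread between rats of a group was set beside that of the 16873 probes well above background on all arrays, whose median within-group SD was 0.39. The SD was 0.90 for Col1a1, larger than that of 92.5% of these probes, 0.85 for Col1a2 (91.5%), 0.82 for Sparc (90.5%) and 0.75 for Mmp2 (88.4%). It was 0.53 for Vim (73.4%) and 0.51 for Bgn (71.2%). By the other probes it was 1.05 for Col1a1 (94.8%) and 0.79 for Bgn (89.8%). By their brightest probes all 6 genes thus varied more between rats of a group than the median probe did. The blast group pools 3 pressures, and the brightest Col1a1 and Mmp2 probes had 1 spot each.

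A trend with pressure was fitted among the blast rats to ask whether levels followed the pressure. limma called 0 of the 10 genes at an adjusted p under 0.05 and 0% of 30236 probes. By the brightest probes the slopes of all 6 genes well above background on all arrays were negative, with a median of -0.64 log2 units per 50 kPa. Among the 16873 probes well above background on all arrays 40.2% were negative, with a median of 0.09. No slope is read for Dcn, dim in M3, XH1 and XH3, or for Col3a1, dim in M3 and XH1. With the slide row as a block, an alternative chosen after the data were seen, the slope was positive for Sparc (0.03) and Fn1 (1.12). That fit has 2 residual degrees of freedom, and its Fn1 slope rests in part on M3, where Fn1 was not well above background. The further Bgn probe, well above background on all arrays, had a slope of 0.83 where the brighter one had -0.21. With a rat left out, the slope was positive for Mmp2 without M2 (0.24) and for Bgn without XH1 (0.16). For Col1a1 it was -0.08 without M3. At an unadjusted p under 0.05, 1 gene (Col1a2) fell with pressure, as did 1.18% of all probes.

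For Col1a2 the slope was -1.51 per 50 kPa (95% interval from -2.92 to -0.10, adjusted p = 1 from limma). The rats at 145 kPa had a mean of 12.99, the rat at 175 kPa 12.88 and the rats at 200 kPa 11.30. Both rats at 200 kPa were below all other rats, controls included. The slope was -1.02 with the slide row as a block. With a lower limit of 8 it was -1.51 and with the slide side as a block -1.50, and the unadjusted p was over 0.05 in both. It was -1.11 without M2, -1.47 without XH1 and -1.27 without XH3, each with an unadjusted p over 0.05, and -2.16 without M3 and -1.54 without H1, each with one under 0.05. With the control rats placed at 0 kPa it was -0.04 with an unadjusted p over 0.05. The 1 gene under 0.05 was then Col3a1, dim on 5 arrays, where 701 of all probes were under 0.05.

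Pressure and place on the slide went together in part: row 1 held M2, C1, C2 and H1, and row 2 held C3, XH1, XH3 and M3. Dcn was well above background on 3 arrays of row 1 (C1, M2 and H1) and on 0 of row 2. Of the 10 genes, 1 (Dcn) had every measured value of row 1 above every one of row 2, as did 3.79% of probes, and 0 genes and 3.25% of probes the opposite. The Dcn values of C2 and of all of row 2 were dim, so their order is not known and no difference of the row means is given. The mean of row 1 exceeded that of row 2 by 1.08 for Col1a2 and 1.07 for Sparc. For Fn1 it did so by 1.92, which rests in part on the dim array of M3 in row 2. For Sparc, C2 in row 1 (11.45) and C3 in row 2 (11.52) were the pair that crossed. The difference was 0.33 for Mmp2, 0.24 for Bgn, -0.07 for Col1a1 and -0.29 for Vim. The part of the slide row in the trend was not tested beyond the fit with the row as a block.

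Whether the genes varied together from rat to rat was examined over the 45 pairs of genes and over 10 relations with Hbb (NM_033234), the beta-globin gene of red cells, 55 relations in all. Of these, 27 use Col3a1, Dcn or Lum, which lack a level in at least 5 rats, and are not read. Among the 7 other genes the r of 14 pairs was positive and that of 7 negative, with a median of 0.12, where Fn1 was dim in M3. Among the 6 genes well above background on all arrays, the median r of 15 pairs was 0.16, and over all pairs of the 16873 probes it was 0.03. The share of pairs with r over 0.5 was 13.3% among these genes and 23.2% among all probes. After Benjamini-Hochberg adjustment over the 55 relations, 0 had an adjusted p under 0.05, while 6 by r and 7 by rho had an unadjusted exact permutation p under 0.05, 3 of each without Col3a1, Dcn and Lum.

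The highest r was that of Col1a1 and Bgn, 0.90 (exact permutation p = 0.0034, adjusted 0.173; Spearman rho 0.88, exact permutation p = 0.00724, adjusted 0.133). Without M3 and H1, the rats farthest from the Col1a1 median, it was 0.94. C2, M3 and H1 were the 3 highest rats in both genes. This relation holds for the brighter probe of each gene, and the other probes of both genes ordered the rats differently, as given above.

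Sparc was next, with Fn1 and with Col1a2. For Sparc and Fn1 r was 0.76 (exact permutation p = 0.0249, adjusted 0.294; rho 0.81, exact permutation p = 0.0218, adjusted 0.24), and 0.77 without H1 and XH3. For Col1a2 and Sparc it was 0.76 (exact permutation p = 0.0291, adjusted 0.294; rho 0.88, exact permutation p = 0.00724, adjusted 0.133), and 0.78 without M2 and XH3. For Col1a2 and Fn1 it was 0.51 (exact permutation p = 0.197, adjusted 0.724; rho 0.52, exact permutation p = 0.197, adjusted 0.866), and 0.46 without M2 and XH3. M2, H1 and C1 were the 3 highest rats in both Col1a2 and Sparc, and they were also the 3 rats in which Dcn was well above background. No r is given for Dcn or Col3a1, each without a level in 5 rats.

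Taken as deviations from the means of the slide rows, an alternative chosen after the data were seen, r was 0.55 for Sparc and Fn1, 0.46 for Col1a2 and Sparc, 0.07 for Col1a2 and Fn1 and 0.95 for Col1a1 and Bgn. Over the 21 pairs r was lower in 11 and higher in 10, with a median of 0.14.

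**Figure D3:**
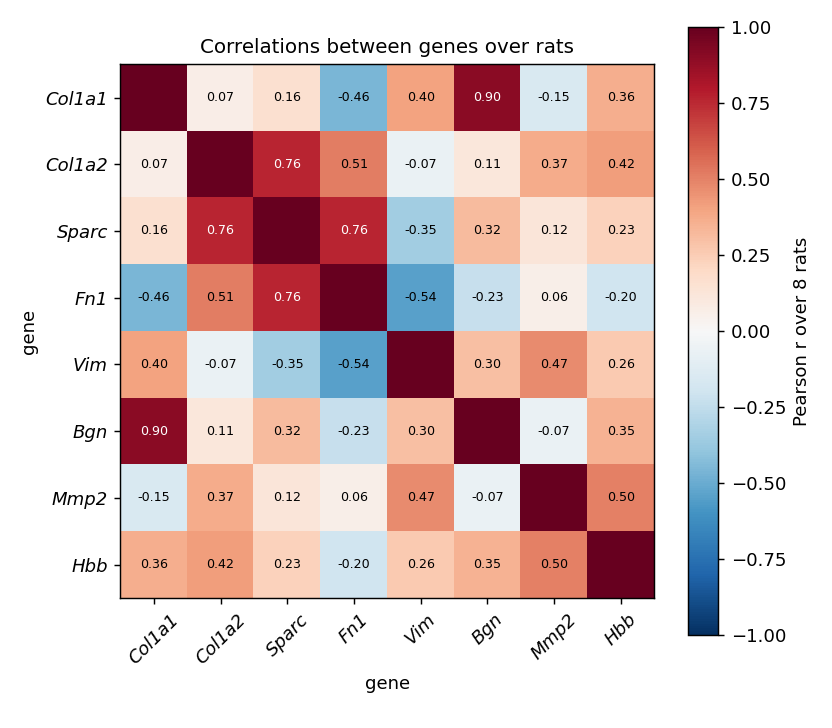
Pearson r over the 8 rats between 7 genes and Hbb, by the brightest probe of each, with genes on both axes and the colour scale running from -1 to 1. The highest values are those of Col1a1 with Bgn (0.90) and of Sparc with Fn1 and with Col1a2 (both 0.76).

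Hbb was the sole marker of another cell type that could be named. Its level was 10.21 in C1, 13.96 in C2 and 11.64 in C3, and 17.42 in M2, 13.34 in M3, 15.37 in H1, 13.31 in XH1 and 14.43 in XH3. M2 and H1 had the most, and 3 blast rats were above all controls. Its log2 fold change was 2.84 (95% interval from 0.11 to 5.57, adjusted p = 1 from limma, exact permutation p = 0.0893). By the further Hbb probe it was 3.46 (from 0.77 to 6.15, adjusted p = 1, exact permutation p = 0.0357), with 4 blast rats above all controls. The 3 rats with the most Hbb by its brighter probe, M2, H1 and XH3, were the 3 in which Col3a1 was well above background, while by the further probe M3 (9.74) lay above XH3 (9.58). With the 7 genes with a level on at least 7 arrays its r lay between -0.20 and 0.50, and on deviations from the group means between 0.12 and 0.81. The highest was that of Mmp2, at 0.50 over the 8 rats (exact permutation p = 0.213, adjusted 0.734; rho 0.36, exact permutation p = 0.389, adjusted 0.931), 0.81 on deviations from the group means and -0.56 without M2 and C1. The part of blood in the Col3a1 difference was not tested.

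The mean of the standardised levels of the 10 genes was highest in H1 (0.63) and M2 (0.57) and lowest in XH1 (-0.69) and XH3 (-0.36), with the controls at -0.32, 0.16 and -0.14. Lum, with no level on any array, and Col3a1 and Dcn, with one on 3, have the weight of any other gene in it. Without Lum, an alternative chosen after the data were seen, M2 (0.76) and H1 (0.69) were highest and XH1 (-0.81) and XH3 (-0.35) lowest. Over the 6 genes well above background on all arrays, M2 (0.60), H1 (0.55) and C2 (0.52) were highest and XH1 (-0.96) and C1 (-0.63) lowest. Among 11141 probes with a RefSeq mRNA accession and a level on all arrays, those most like the mean of all 10 were NM_001108294 and NM_001101000, each with r = 0.92 over the 8 rats, given as a description. NM_001108294 read 10.89, 11.02 and 10.86 in C1, C2 and C3, and 11.12 in M2, 10.87 in M3, 11.21 in H1, 10.69 in XH1 and 10.67 in XH3. NM_001101000 read 11.32, 11.79 and 11.39 in C1, C2 and C3, and 11.64 in M2, 11.71 in M3, 12.05 in H1, 10.89 in XH1 and 11.19 in XH3. Both were highest in H1 and lowest in the 200 kPa rats, but in the latter C2 and M3 also lay above M2. Their likeness depends on the genes in the mean. NM_001108294 was at rank 1 without Lum (r = 0.94) and at rank 167 over the 6 genes (0.81), and NM_001101000 at rank 14 (0.87) and 11 (0.91). Further matrix genes and markers of fibroblasts, epithelium, vessels and muscle were not analysed here, since no table at hand paired their probes with symbols.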

How the data were processed

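RNA of whisker follicles was hybridised in 1 colour to 8 arrays on 1 slide, 1 per rat. Spot intensity was made by the authors with Feature Extraction 10.7.1.1, which subtracts background. A table of log2 values deposited by the authors served as an alternative.

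Spots that were controls or carried an outlier mark did not enter. The log2 intensities of a probe's spots were averaged, and the arrays were quantile normalized on the intensity scale with 3.0 as the lower limit. Quantile normalization of the log2 values was computed first. The intensity scale, which the planned design states, was taken up after its number of calls had been seen to match that of an earlier processing of these data, and the form on log2 values is kept as an alternative. Blast was compared with control, and a slope per 50 kPa fitted among blast rats, with limma 3.58.1 in R 4.3.3 over all probes, with Benjamini-Hochberg adjustment. Exact permutation tests were two-sided, over 56 ways to part the rats or 40320 pairings of 8 rats. Simulated probe levels with known changes were used to test the limma fits, with quantile normalization for the group fit and without it for the slope.

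The members and lists were chosen with earlier results of these data known. Named genes were the 10 members by their brightest probe, Hbb, and the 2 accessions most like the members' mean. Of the members' accessions, 0 matched the gene table of Rrattus_CSIRO_v1, and symbols were those given with the list. Fits with slide row or side as a block for the trend, and deviations from row means for correlations, were chosen after the data were seen, as was the limit of directions, medians and correlations to genes well above background on all or at least 7 arrays. Arrays were few, 3 and 5, which limits the precision.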

Additional observations from a re-analysis of the deposited data

Results flagged for a closer look

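Col1a2 differed from the control mean in opposite directions at the lowest and the highest pressure: both rats at 145 kPa lay above it and both at 200 kPa below it, and the difference between them was -1.69 on the log2 scale. Fitted with limma as 200 kPa against 145 kPa and scaled to 50 kPa, it was -1.54 with an adjusted p of 0.938.

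Mmp2 in M2 stood far from the other blast rats, with a gap of 0.853 of the range of the group. Its level was 8.11, and the other 4 lay between 6.24 and 6.52. Of 11 genes looked at in this way, Hbb included, it was the 1 past the limit, and chance passes about 1 group in 20. The array of M2 was also the one on which the further Mmp2 probe was well above background. The cause was not tested.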

How the results depend on the processing

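At an adjusted p under 0.05 limma called 0 of the 10 genes for blast against control under all 22 alternatives with a test and 0 for the trend under all 16. With normexp 0 genes and 669 probes had an unadjusted p under 0.05 for blast against control, where the main fit had 1 gene and 850 probes. The median log2 fold change of the 10 genes, dim ones included, was 0.50 within slide row 1 and -0.24 within row 2, where C3 was the only control. It lay between -0.14 and 0.17 with a rat left out.

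Some log2 fold changes changed sign, among them that of Fn1, -1.27 over both rows. In slide row 2, C3 was the only control, and both 200 kPa rats were there. The log2 fold change within rows 1 and 2 was 0.80 and -0.79 for Sparc, 0.91 and -0.20 for Col1a2 and 0.43 and -0.89 for Mmp2. It was 0.30 and -2.30 for Fn1 and 0.05 and -0.29 for Vim. None is given within rows for Dcn, dim on all arrays of row 2. Over both rows its measured values, dim on 5 arrays, gave a difference of -0.01, which is not read under any setting. It was 0.11 with 75th percentile scaling, 0.28 with a lower limit of 8, 0.16 with outlier spots kept and 0.23 with normexp. It was 0.01 with the authors' values and with quantile normalization of log2 values (chosen after the data were seen). With a block it was 0.73 (slide row) and 0.30 (slide side), and with a rat left out from -0.82 to 0.46. Bgn was 0.00 with array weights, -0.18 with the slide side as a block and -0.01 with the mean of its probes. Col1a2 was -0.02 with array weights and Sparc 0.12 with the slide row as a block. Vim was 0.01 with the authors' values and Mmp2 0.31 with the mean of its probes. With a rat left out, Bgn lay from -0.19 to 0.38, Col1a2 from -0.20 to 0.40, Sparc from -0.55 to 0.06 and Vim from -0.31 to 0.16. Mmp2 lay from -0.59 to -0.01, Col1a1 from 0.00 to 0.96 and Fn1 from -2.04 to -0.49. Fn1 was -0.76 with normexp, -0.81 with the slide row as a block and -0.67 with the mean of its probes.

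With the number in the titles as replicate block, Vim was 0.03, against -0.01 without it. Leaving aside Dcn and Lum, no other gene changed direction, and Mmp2 moved from -0.21 to -0.05. The number of genes called did not change at an adjusted or an unadjusted p under 0.05. Over all probes both fits gave 850 unadjusted calls, 562 of them shared. Deviations over all probes correlated from -0.58 to 0.51 for rats sharing a number and -0.66 to 0.61 otherwise, so they cannot decide on pairing.

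For the trend, the number of genes at an unadjusted p under 0.05 was 0 with a lower limit of 8 (Col1a2 slope -1.51) and with the slide side as a block (-1.50). With the slide row it was 2, Col1a2 (-1.02) and Fn1 (1.12, in part from the dim array of M3), on 2 residual degrees of freedom. Both blocks were chosen after the data were seen. Over all probes the number was 860 in the main fit, 783 with a lower limit of 8, 1441 with the slide side and 1762 with the slide row. With a rat left out, from 0 to 2 genes were under 0.05, with Col1a2 and Dcn without M3, and Vim in place of Col1a2 without XH3. Over all probes there were 4744 without M2 (0 genes), 1301 without M3, 1277 without H1, 409 without XH1 and 508 without XH3. With all 8 rats, 1 gene (Col3a1 in place of Col1a2) and 701 probes were under 0.05. The slopes of Dcn and Col3a1 rest on dim arrays and are not read. The median slope of the 10 genes, dim ones included, was -0.54, against -0.18 with the slide row as a block and -0.04 with all 8 rats. With a rat left out it lay from -1.05 to -0.14. With all 8 rats the slope was 0.10 for Col1a1, 0.47 for Col3a1 and 0.00 for Bgn. With the slide row as a block it was 0.18 for Col3a1 and 0.03 for Sparc. With a rat left out it lay from -0.76 to 0.45 for Col3a1, -1.88 to 0.62 for Fn1, -0.57 to 0.16 for Bgn and -1.35 to 0.24 for Mmp2.

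Of the 55 correlations, 1 (Col1a1 with Bgn) had an adjusted p under 0.05 on deviations from slide row means, chosen after the data were seen, whose permutation does not allow for the fitted means. From 0 to 2 had one with a rat left out, the 2 without M3 (Col1a1 with Bgn, r = 0.96, and Col1a2 with Dcn, where Dcn was dim in 4 of the 7 rats). The causes were not tested. Genes not well above background on all arrays (Fn1, Col3a1, Dcn and Lum) are limited by signal over background.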
